A study of Mus musculus with 6 samples.

Results

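The collagen genes are the gene entries whose symbol is Col, a number, the letter a and a number, such as Col1a1. That rule finds 44 of the 35491 named entries that each library holds, and it uses no measured value. All 44 had a mean of at least 1 scaled read over the libraries and were tested. They fall into fibrillar collagens (11 genes), basement membrane collagens (8), the microfibril collagen type VI (6), collagens of muscle junctions (3), fibril-associated collagens (8), network and anchoring collagens (4) and others (4).

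The RNA was taken from the gastrocnemius of the calf in male, chow-fed mice of a C57BL/6J background at an age of 20 weeks. There were 3 Control mice and 3 Ogg1Tg mice. The Ogg1Tg mice carry human OGG1-1a, a DNA repair enzyme that removes oxidised guanine, joined to a signal that sends it into mitochondria and driven by the CMV/AG promoter, which is active in most cell types. The transgene is thus not specific to muscle fibres. The Control mice carry no transgene that the labels name, and the labels do not say whether they were littermates.

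Collagens are the main proteins of the matrix around muscle fibres. Each is built of 3 chains wound into a triple helix, and the chains are hydroxylated and folded in the cell, cut after secretion and then cross-linked. In skeletal muscle, fibroblasts and fibro-adipogenic cells make most of the fibrillar collagen of the endomysium and perimysium, while type IV collagen, made by several cell types, forms the sheet of the basement membrane on each fibre and capillary.

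Each value below is a number of reads divided by 1 factor per library, called scaled reads, and it is not divided by gene length. Named genes held 45189860 to 56126407 reads per library. Muscle genes were abundant in every library: Acta1, skeletal muscle actin, measured 646337 to 734469 scaled reads in 5 libraries and 429065 in Ogg1Tg replicate 3. That library stood apart. Its Spearman correlations with the other 5, across genes, were 0.946 to 0.953, against 0.975 to 0.983 among the others. Its summed lymphocyte markers came to 8083 scaled reads against 36.1 to 99.97 elsewhere, its adipocyte markers to 11309 against 3204 to 4205, and its macrophage markers to 9277 against 3000 to 5965. Counts over all collagens and the log2 fold changes of the named collagens are therefore given with and without Ogg1Tg replicate 3. Marker lists and lists of other genes are given mainly for all 6 libraries. The part that these other cells had in the results was not tested.

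No collagen gene passed the test between the groups. With limma on log2(scaled reads + 1), called at an adjusted p under 0.05, 0 of 44 collagens passed, where 0.545% of all 23312 genes tested did (127 genes). Without Ogg1Tg replicate 3, 0 of 44 passed again, against 1.86% of 22815 genes. At an unadjusted p under 0.05, limma gave 10 of 44 collagens (22.7%), where 11.0% of all genes tested reached it. Of these, 8 were higher in Ogg1Tg muscle, a share of 18.2% against 4.24% of all genes, and 2 were lower, 4.55% against 6.78%. Without Ogg1Tg replicate 3 the unadjusted counts were 10 of 44 again (13.9% of all genes), 8 higher (5.72%) and 2 lower (8.15%). That count depended on the filter: without the same library but with low values filtered on all 6, it was 5 of 44 (11.4%, against 13.7% of all genes), of which 4 were higher (9.09%, against 6.06%). On the recovered reads, edgeR called 0 collagens (0.532% of all genes), with 38.6% of them against 11.6% of all genes at an unadjusted p under 0.05. DESeq2 called 3 collagens, all higher, which is 6.82% of them against 2.67% of all genes, and at an unadjusted p under 0.05 it gave 34.1% against 10.9%. These were Col3a1 (DESeq2 adjusted p = 0.013), Col1a1 (0.026) and Col5a1 (0.037).

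Collagen values lay higher in Ogg1Tg muscle more often than those of other genes did. The log2 fold change was above 0 for 31 of 44 collagens (70.5%), against 47.2% of all genes tested. The median over the collagens was 0.21, and over all genes -0.02. Every Ogg1Tg value was above every Control value for 11 collagens (25.0%, against 7.03% of all genes), and below for 3 (6.82%, against 11.3%). Without Ogg1Tg replicate 3 the first count was 14 (31.8%, against 13.1%), the second again 3 (6.82%, against 17.1%), 30 of 44 log2 fold changes were above 0 (68.2%, against 44.5%), and the collagen median 0.20. Collagen genes are not independent of each other, and these counts carry no test.

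**Figure D1:**
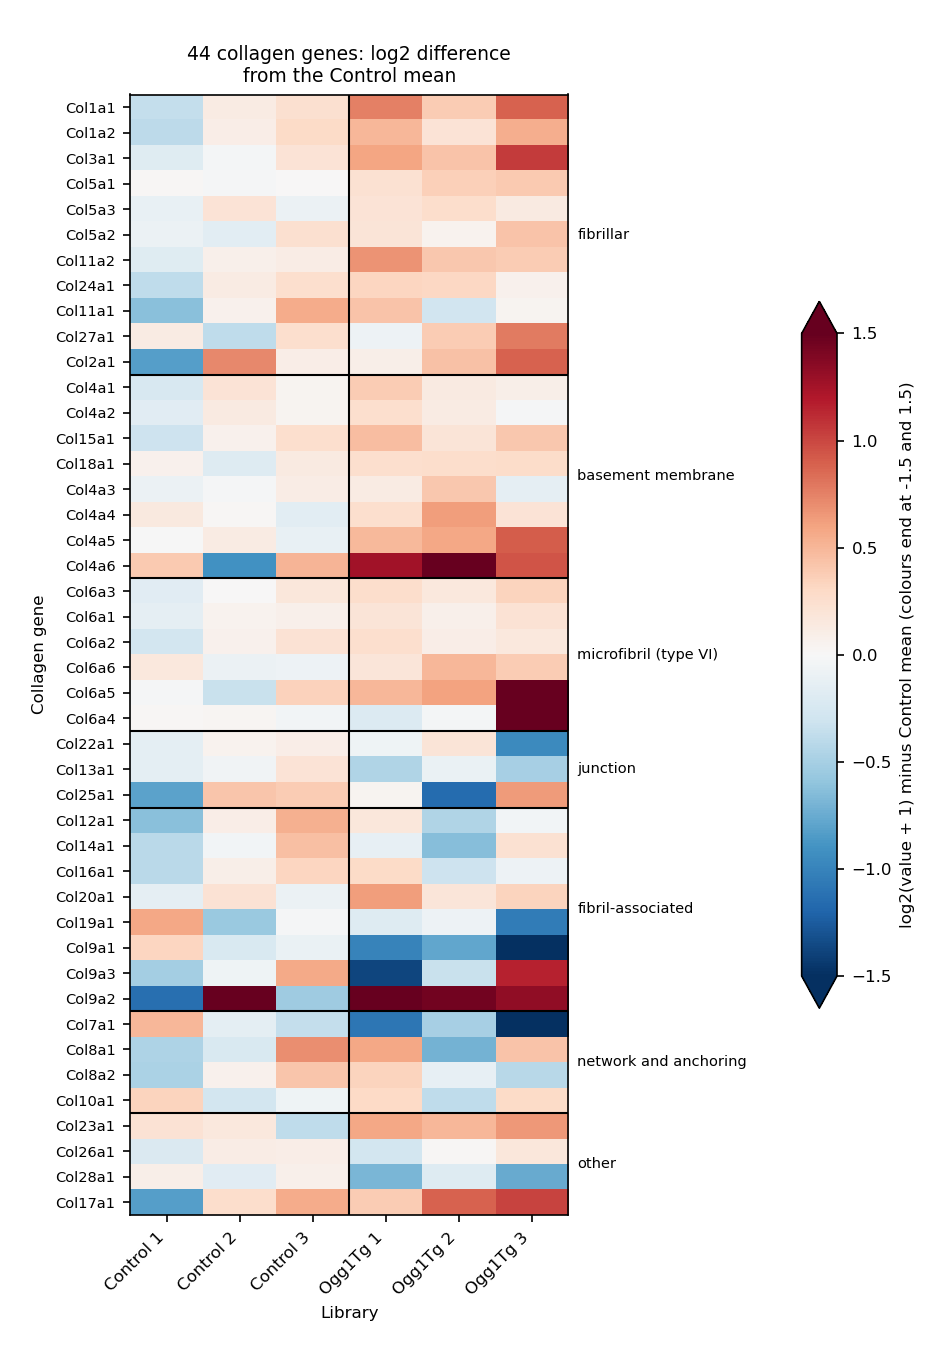
Each row is 1 of the 44 collagen genes and each column 1 of the 6 libraries; colour is log2(scaled reads + 1) minus the Control mean of that gene, ending at -1.5 and 1.5. Rows of fibrillar, basement membrane and type VI collagens are mostly above 0 in the Ogg1Tg columns, and the Control replicate 1 column is the lowest of the 3 Control columns in 28 of 44 rows.

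The Control libraries differed among themselves in a shared direction. Control replicate 1 held the lowest of the 3 Control values for 28 of 44 collagens and the lowest of all 6 for 20. Control replicate 3 held the highest Control value for 25. Ogg1Tg replicate 3 held the highest of all 6 values for 18 collagens and the lowest for 7. Without Control replicate 1 the collagen median was 0.12, with 29 genes above 0, and without Control replicate 3 it was 0.32, with 38 above 0. Tendon markers, which are tenomodulin, scleraxis, fibromodulin and 5 others, summed to 10072, 17854 and 24635 scaled reads in the 3 Control libraries, and those of Ogg1Tg muscle to 18913, 11959 and 10753. Among the Control libraries, replicate 1 was thus lowest in summed tendon markers as well as in most collagens. This was not particular to tendon. Its summed fibroblast, endothelial and mural, macrophage and lymphocyte markers were the lowest Control sums too. Its summed muscle fibre, Schwann cell, adipocyte, neutrophil, and cartilage and bone markers were not. The part that tendon had in the collagen values was not tested.

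Summed collagen values were higher in each Ogg1Tg library than in any Control library. Summed over the 44 genes, scaled reads came to 63939, 77790 and 83300 in the Control libraries and to 97672, 85371 and 100642 in the Ogg1Tg libraries. As a share of the reads in named genes, collagens held 0.0885%, 0.115% and 0.126% in Control muscle, and 0.157%, 0.125% and 0.221% in Ogg1Tg muscle. The groups do not overlap on the scaled values, and on the share Ogg1Tg replicate 2 lies below Control replicate 3. Ogg1Tg replicate 3 stands further from the others on the share than on the scaled sum.

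Per kilobase of the principal transcript, type I and type III collagen were the most abundant. Levels between genes were compared on scaled reads per kilobase of the principal transcript, as mean ± SD over all 6 libraries. Col1a1 measured 2274 ± 685, Col1a2 2183 ± 468 and Col3a1 1935 ± 630, and these means lie closer together than any of their SDs. The SDs include differences between libraries and groups that the genes share. They therefore do not test one gene against another within a library. The type IV chains Col4a1 (1240 ± 172) and Col4a2 (1032 ± 102) came next, followed by Col6a1 (890 ± 75.6), Col6a2 (880 ± 108) and Col6a3 (619 ± 76.0). Col1a1 and Col4a1 are separated by more than the SD of either, while Col6a1 and Col6a2 are not. The lowest was Col9a2, a chain of a cartilage collagen, at 3.37 ± 2.12. The order depends on the length taken. Per kilobase of all annotated exons, Col1a1 stayed at rank 1 and Col1a2 moved from second to rank 5. Col4a1 was then at rank 2, Col3a1 at rank 3 and Col4a2 at rank 4, so types I and III no longer led type IV.

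**Figure D2:**
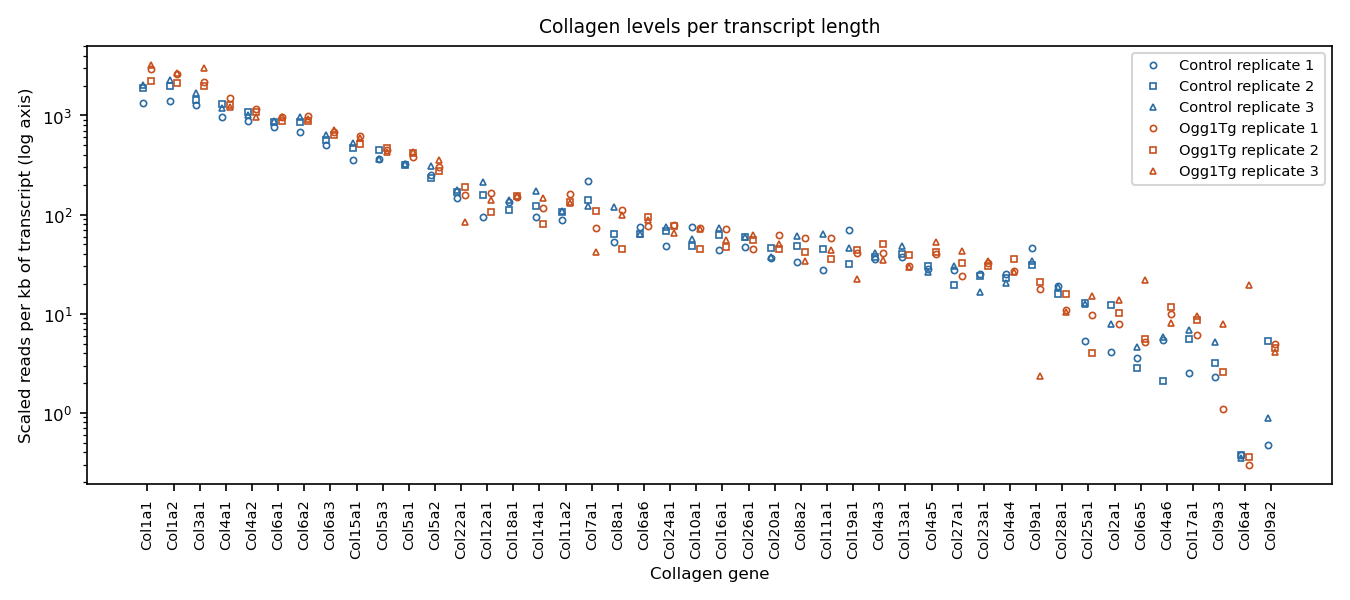
Scaled reads per kilobase of the principal transcript (log axis) for each collagen gene, with 1 point for each of the 6 libraries. Col1a1, Col1a2 and Col3a1 lie at the top, with means of 2274, 2183 and 1935, and the levels run down to 3.37 for Col9a2.

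All the fibrillar collagens had higher mean log2 values in Ogg1Tg muscle. These collagens form the tensile fibres, with types I and III as the bulk and types V and XI as the chains that start and size a fibril. Of their 11 log2 fold changes 11 were above 0, also under each scaling tried, and their median was 0.36. Without Ogg1Tg replicate 3 all 11 were again above 0 and the median was 0.30. Leaving out Control replicate 1, or Ogg1Tg replicate 1, left 10 of 11 above 0. Their share of all collagen reads was 47.8%, 49.4% and 51.0% in Control muscle and 54.9%, 53.5% and 60.2% in Ogg1Tg muscle, with no overlap.

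Col1a1, the main chain of type I collagen (chromosome 11, 94936224 to 94953042, GRCm38), measured 7978, 11188 and 12097 scaled reads in Control muscle (values always in the order of replicates 1, 2 and 3) and 17383, 13306 and 18944 in Ogg1Tg muscle. All 3 Ogg1Tg libraries were above all 3 Control libraries, with Control replicate 1 the lowest. The log2 fold change was 0.67 ± 0.20 (SE; limma adjusted p = 0.27), and 0.57 without Ogg1Tg replicate 3 (limma adjusted p = 0.16). Col1a2, its partner chain, measured 7554, 10606 and 12084 in Control muscle and 13988, 11398 and 14426 in Ogg1Tg muscle. Here Ogg1Tg replicate 2 lay below Control replicate 3, so the groups overlap, and the log2 fold change was 0.42 ± 0.20 (SE; limma adjusted p = 0.48; 0.35 without Ogg1Tg replicate 3). The ratio of Col1a1 to Col1a2 scaled reads was 1.06, 1.05 and 1.00 in Control muscle and 1.24, 1.17 and 1.31 in Ogg1Tg muscle. Every Ogg1Tg ratio was above every Control ratio, as a description with no test.

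Col3a1, the chain of type III collagen that forms thin fibres with type I, had the smallest adjusted p of the 44 collagens. It lies on chromosome 1 from 45311538 to 45349706 and measured 7163, 7994 and 9413 scaled reads in Control muscle and 12238, 10954 and 16827 in Ogg1Tg muscle. The groups do not overlap, and Ogg1Tg replicate 3 was the highest. Its log2 fold change was 0.69 ± 0.19 (SE; limma adjusted p = 0.22), and 0.51 without that library (limma adjusted p = 0.074, or 0.26 with the filter on all 6). The ratio of Col3a1 to Col1a1 was 0.715 to 0.898 in Control and 0.704 to 0.888 in Ogg1Tg muscle, ranges that overlap almost wholly.

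Of the regulatory fibrillar chains, Col5a1 and Col11a2 had groups that did not overlap. Col5a1, the type V chain that limits fibril width (chromosome 2, 27886425 to 28039514), measured 2743, 2690 and 2727 in Control muscle and 3190, 3498 and 3558 in Ogg1Tg muscle. Its Control values lay close together, and every Ogg1Tg value was above them. The log2 fold change was 0.33 ± 0.11 (SE; limma adjusted p = 0.32; 0.30 without Ogg1Tg replicate 3). Col11a2, a type XI chain known mainly from cartilage (chromosome 17, 34039437 to 34066685), measured 474, 569 and 583 against 861, 717 and 702, a log2 fold change of 0.49 ± 0.15 (SE; limma adjusted p = 0.28; 0.54 without Ogg1Tg replicate 3). The other fibrillar chains, Col5a2, Col5a3, Col24a1, Col11a1, Col27a1 and Col2a1, had overlapping groups and log2 fold changes from 0.06 to 0.47. Col2a1, the cartilage collagen, had only 15 to 70 reads per library.

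**Figure D3:**
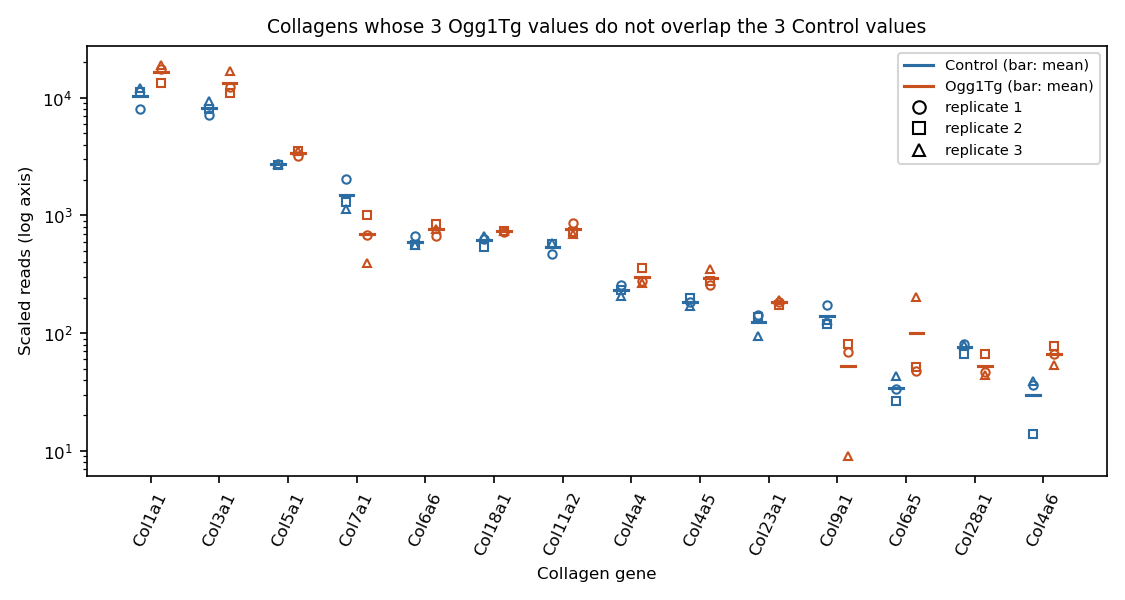
Scaled reads (log axis) in each library for the collagens whose 3 Ogg1Tg values lie wholly above or wholly below the 3 Control values, with a bar at each group mean. The 11 genes with higher Ogg1Tg values include Col1a1, Col3a1 and Col5a1, and the 3 with lower values are Col7a1, Col9a1 and Col28a1.

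In bulk muscle, more cells of a type and more RNA per cell cannot be told apart. The 10 fibroblast markers, with Pdgfra, Dpt and Pi16 among them, summed to 26400, 32413 and 36541 scaled reads in Control and to 29475, 24000 and 24432 in Ogg1Tg muscle. The sums overlap, and 3 of the 10 genes had a log2 fold change above 0, with a median of -0.14. Pdgfra, the receptor that marks fibro-adipogenic cells, measured 2559, 2525 and 2811 in Control and 2212, 1949 and 1818 in Ogg1Tg muscle (limma adjusted p = 0.28). Dcn, the fibril-binding proteoglycan decorin and a product of the same cells, is among these 10 markers and made up most of each sum. It measured 17075, 21264 and 24539 in Control and 19014, 15122 and 14727 in Ogg1Tg muscle (limma adjusted p = 0.52). The median log2 fold change was thus above 0 for the fibrillar collagens and below 0 for these markers of the cells that make them. Without Ogg1Tg replicate 3, 2 of the 10 markers were above 0, with a median of -0.12. The marker direction was not shared by all libraries. The median log2 difference of the markers from their Control mean was -0.26, 0.03 and 0.19 in Control muscle. In Ogg1Tg muscle it was 0.03, -0.33 and -0.14, so the groups overlap. The ratio of Col1a1 to Dcn was 0.467, 0.526 and 0.493 in Control muscle and 0.914, 0.880 and 1.29 in Ogg1Tg muscle, with no overlap; this pair was picked with its values known.

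The 8 basement membrane collagens also all had log2 fold changes above 0, their median being 0.31 (0.30 without Ogg1Tg replicate 3). Without Ogg1Tg replicate 2, 7 of 8 were above 0. The abundant chains of type IV, Col4a1 and Col4a2, form most basement membranes. Col4a1 measured 6425, 8703 and 7779 in Control and 9890, 8344 and 8070 in Ogg1Tg muscle, a log2 fold change of 0.20 ± 0.16 (SE; limma adjusted p = 0.67; 0.26 without Ogg1Tg replicate 3). Col4a2 measured 5658, 6965 and 6529 against 7554, 6953 and 6267, a log2 fold change of 0.12 ± 0.14 (SE; limma adjusted p = 0.77; 0.19 without Ogg1Tg replicate 3). In both genes Ogg1Tg replicate 1 was the highest of all 6, and the other Ogg1Tg libraries lay within the Control range. The ratio of Col4a1 to Col4a2 was 1.14 to 1.25 in Control and 1.20 to 1.31 in Ogg1Tg muscle.

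Among the rare type IV chains, which replace the common ones in selected basement membranes, Col4a5 and Col4a6 had the largest differences. Col4a5 (chromosome X, 141475385 to 141689234) measured 183, 200 and 171 in Control and 259, 276 and 348 in Ogg1Tg muscle, with no overlap. Its log2 fold change was 0.66 ± 0.19 (SE; limma adjusted p = 0.24), and 0.54 without Ogg1Tg replicate 3 (limma adjusted p = 0.19). Col4a6, its neighbour on the other strand (141165403 to 141474076), measured 36.1, 14.0 and 39.2 against 66.6, 78.1 and 53.3. These rest on 10 to 30 reads in each Control library and 53 to 60 in each Ogg1Tg library. Its log2 fold change was 1.23 ± 0.45 (SE; limma adjusted p = 0.35), and 1.38 without Ogg1Tg replicate 3 (limma adjusted p = 0.22). Col4a4 measured 255, 234 and 206 against 275, 357 and 267, also without overlap (log2 fold change 0.36, and 0.44 without Ogg1Tg replicate 3), while Col4a3 overlapped at 306, 320 and 350 against 353, 431 and 296.

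The type IV genes lie head to head in pairs, each pair read outwards from a shared start region. Col4a1 and Col4a2 overlap by 22 bases on chromosome 8, Col4a4 and Col4a3 start 71 bases apart on chromosome 1, and Col4a6 and Col4a5 start with 1308 bases between them on chromosome X. Where the counting did not use strand, reads of the 22 shared bases cannot be assigned to either gene of that pair.

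Promoter sequences are shown for 4 collagens: Col4a5 and Col4a6 as the only head-to-head pair in which neither gene has overlapping groups over all 6 libraries, Col3a1 as the collagen with the smallest adjusted p, and Col7a1 as the one with the smallest adjusted p among those with lower values. Each is the sequence just before the start of the gene in RefSeq's GRCm38.p6, written 5′ to 3′ on the strand of the gene, and capitals mark 3 short motifs on either strand: CCAAT, the CCAAT box; GGGCGG, known as the GC box; and TATAA, the core of the TATA box. The Col3a1 stretch is chr1:45311288-45311537 (+), that of Col7a1 chr9:108953336-108953585 (+), that of Col4a5 chrX:141475169-141475384 (+, 216 bases, with 34 exonic bases left out) and that of Col4a6 chrX:141474077-141474326 (-).
Col3a1: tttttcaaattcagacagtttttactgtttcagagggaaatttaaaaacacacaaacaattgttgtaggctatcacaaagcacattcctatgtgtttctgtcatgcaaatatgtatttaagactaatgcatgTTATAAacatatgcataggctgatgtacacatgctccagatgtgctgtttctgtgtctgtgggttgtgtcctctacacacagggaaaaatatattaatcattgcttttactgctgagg
Col7a1: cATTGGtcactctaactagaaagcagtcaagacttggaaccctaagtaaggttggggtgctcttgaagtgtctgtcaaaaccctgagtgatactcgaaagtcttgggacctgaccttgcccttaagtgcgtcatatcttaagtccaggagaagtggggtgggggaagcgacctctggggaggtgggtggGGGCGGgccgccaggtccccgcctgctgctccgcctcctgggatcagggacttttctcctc
Col4a5: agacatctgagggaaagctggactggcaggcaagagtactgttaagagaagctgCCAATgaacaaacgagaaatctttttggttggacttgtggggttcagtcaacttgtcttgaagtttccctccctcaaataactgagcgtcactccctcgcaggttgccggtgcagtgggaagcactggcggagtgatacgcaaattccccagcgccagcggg
Col4a6: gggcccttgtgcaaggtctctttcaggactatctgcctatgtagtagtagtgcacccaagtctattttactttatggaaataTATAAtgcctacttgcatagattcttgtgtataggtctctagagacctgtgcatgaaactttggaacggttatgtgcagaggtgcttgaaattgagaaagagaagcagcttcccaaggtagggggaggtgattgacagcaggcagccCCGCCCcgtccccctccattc
The Col3a1 stretch, which is 35.2% G or C, holds TATAA on both strands, overlapping, and neither CCAAT nor GGGCGG. The Col7a1 stretch, 56.4% G or C, holds ATTGG, which is CCAAT read on the other strand, and GGGCGG. The Col4a5 stretch holds CCAAT and the Col4a6 stretch TATAA and CCGCCC, the reverse of GGGCGG. These stretches, of 216 and 250 bases, thus share none of the 3 motifs. The 1308 bases between the starts of the pair were not searched in full. In the 250 bases before the start, CCAAT on either strand was in 33.8% of 32851 promoters and in 34.2% of the 38 promoters that matched 35 collagen genes. GGGCGG was in 32.7% of all promoters and 57.9% of collagen promoters, and TATAA in 22.8% and 18.4%. A match describes these letters and is not a binding site.

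The other basement membrane collagens are the proteoglycan-like types XV and XVIII, which bridge the membrane to the matrix beneath it. Col18a1 measured 637, 536 and 668 in Control and 725, 734 and 738 in Ogg1Tg muscle, without overlap (log2 fold change 0.26 ± 0.14, SE; limma adjusted p = 0.52; 0.26 also without Ogg1Tg replicate 3). Col15a1 measured 1851, 2407 and 2744 against 3186, 2642 and 3058, and there Ogg1Tg replicate 2 fell inside the Control range. The list of partners in the membrane, such as laminins, nidogens and perlecan, holds 18 genes. Of these, 10 had log2 fold changes above 0 and 8 below, with a median of 0.06. At an unadjusted p under 0.05, where limma had 4.24% of all genes higher, 2 of these partners passed, both higher. Limma called 0 of these partners at the adjusted threshold. Their median was -0.04 without Ogg1Tg replicate 1, -0.01 without Ogg1Tg replicate 2, 0.14 with edgeR (14 above 0) and 0.17 with quantile normalization. Hspg2, which encodes perlecan, measured 24499 ± 2173 in Control and 23585 ± 4008 in Ogg1Tg muscle (SD, n = 3; limma adjusted p = 0.92), and Lamc1, the common laminin chain, 9017 ± 396 against 8806 ± 1016 (SD, n = 3; limma adjusted p = 0.93). The direction of both depended on the setting: Hspg2 was above 0 with edgeR, with quantile normalization and without Ogg1Tg replicate 3, and Lamc1 also with DESeq2 and median-of-ratios rescaling.

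Type VI collagen forms beaded microfibrils between the basement membrane and the fibres around it, and mutations in its main chains cause muscular dystrophy. All 6 genes had log2 fold changes above 0, their median being 0.30. Leaving out Ogg1Tg replicate 3 put 5 of 6 above 0 and the median at 0.19. The main chains overlapped between the groups. Col6a3 measured 4513, 5085 and 5683 in Control and 6089, 5653 and 6406 in Ogg1Tg muscle (log2 fold change 0.25 ± 0.13, SE; limma adjusted p = 0.52; 0.21 without Ogg1Tg replicate 3). Col6a1 measured 3138, 3563 and 3635 against 3944, 3614 and 4000 (log2 fold change 0.16, and 0.14 without Ogg1Tg replicate 3), and Col6a2 2682, 3406 and 3783 against 3872, 3482 and 3628. In each of these genes Ogg1Tg replicate 2 was below Control replicate 3. The ratio of Col6a3 to Col6a1 was 1.44, 1.43 and 1.56 in Control and 1.54, 1.56 and 1.60 in Ogg1Tg muscle.

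The alternative type VI chains behaved less alike. Col6a6, which can take the place of Col6a3 in muscle, measured 666, 561 and 563 in Control and 675, 840 and 774 in Ogg1Tg muscle, with log2 fold change 0.35 ± 0.15 (SE; limma adjusted p = 0.42; 0.34 without Ogg1Tg replicate 3). Col6a5 measured 33.3, 26.6 and 43.1 against 47.8, 51.6 and 202, so its groups do not overlap but Ogg1Tg replicate 3 is far above the rest. Its log2 fold change of 1.21 (limma adjusted p = 0.46) was 0.55 without that library. Col6a4 had 2 reads in each of 5 libraries and 142 reads in Ogg1Tg replicate 3. The Col6a4 difference rests wholly on that library.

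The junction collagens did not share the direction of the classes above. Col22a1 marks the myotendinous junction, Col13a1 the neuromuscular junction, and Col25a1 is a muscle collagen needed for motor innervation. Col22a1 measured 1306, 1501 and 1551 in Control and 1386, 1659 and 749 in Ogg1Tg muscle. Ogg1Tg replicates 1 and 2 lay near the Control values and Ogg1Tg replicate 3 below all of them, so the log2 fold change of -0.27 ± 0.26 (SE; limma adjusted p = 0.73) became 0.07 without that library. Col13a1 measured 119, 127 and 153 against 96.6, 123 and 93.5 (log2 fold change -0.35 ± 0.24, SE; limma adjusted p = 0.62; -0.28 without Ogg1Tg replicate 3). Col25a1 had 8 to 39 reads per library and measured 13.9, 33.6 and 32.6 against 25.5, 10.6 and 39.2, with no direction that held: its log2 fold change was -0.16, and -0.56 without Ogg1Tg replicate 3, but it was above 0 with edgeR and in 3 of 6 fits that left out a library.

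The fibril-associated collagens, which coat fibrils and have interrupted helices, had 2 of 8 log2 fold changes above 0 and a median of -0.14, the same without Ogg1Tg replicate 3. The count above 0 moved with single Control and Ogg1Tg libraries, to 6 of 8 without Control replicate 3 (median 0.11) and to 5 without Ogg1Tg replicate 2 (median 0.06). Col12a1, abundant in tendon and perimysium, measured 1091, 1796 and 2426 in Control and 1899, 1225 and 1631 in Ogg1Tg muscle (log2 fold change -0.11, and -0.14 without Ogg1Tg replicate 3; limma adjusted p = 0.91). Col14a1 measured 542, 697 and 983 against 658, 462 and 840 (log2 fold change -0.18, and -0.38 without Ogg1Tg replicate 3; limma adjusted p = 0.83). In both genes Control replicate 1 was the lowest Control library and Control replicate 3 the highest of all 6. The summed tendon markers and the summed fibroblast markers had that order too. The ratio of Col3a1 to Col12a1 was 6.56, 4.45 and 3.88 in Control and 6.44, 8.94 and 10.3 in Ogg1Tg muscle, which overlap through Control replicate 1.

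Col9a1 had the largest negative log2 fold change of the collagens. It encodes a type IX chain, known from cartilage (chromosome 1, 24177610 to 24252684), and measured 175, 119 and 129 scaled reads in Control and 68.9, 80.7 and 9.05 in Ogg1Tg muscle. Every Ogg1Tg library was below every Control library, and Ogg1Tg replicate 3 had 9 reads. Its log2 fold change was -1.86 ± 0.71 (SE; limma adjusted p = 0.38), and -0.89 without that library (limma adjusted p = 0.14). Its partner chains Col9a2 and Col9a3 had 1 to 24 reads per library. Of 8 markers of cartilage and bone, 3 had a mean of at least 1 and Matn1, Ibsp and Bglap2 were at 0 in all 6 libraries. The tested markers did not share the direction of Col9a1. Their log2 fold changes were 1.49 for Acan, 0.15 for Sox9 and 1.37 for Dmp1, and limma called 0. Acan had 0 to 6 reads per library and Dmp1 0 to 10. The remaining members, Col16a1, Col19a1 and Col20a1, had overlapping groups and log2 fold changes of -0.03, -0.44 and 0.38.

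Col7a1, the chain of the anchoring fibrils that hold epidermis to dermis, also had lower values in every Ogg1Tg library. It lies on chromosome 9 from 108953586 to 108984875 and measured 2029, 1306 and 1128 in Control and 678, 1017 and 391 in Ogg1Tg muscle. The groups do not overlap, and Control replicate 1 is here the highest library and not the lowest. The log2 fold change was -1.16 ± 0.34 (SE; limma adjusted p = 0.25), and -0.79 without Ogg1Tg replicate 3 (limma adjusted p = 0.15). Without Ogg1Tg replicate 2 its adjusted p of 0.090 was the smallest over the collagens (limma). Of the network collagens, Col8a1, a type VIII chain of vessel walls, measured 273, 323 and 611 against 563, 232 and 509, and its log2 fold change of 0.10 was below 0 when any 1 of 4 libraries was left out (Control replicate 1 or 2, Ogg1Tg replicate 1 or 3), among them -0.065 without Ogg1Tg replicate 3. Col8a2 and Col10a1, the latter known from hypertrophic cartilage, had overlapping groups and log2 fold changes of -0.07 and 0.07. Both changed sign without Ogg1Tg replicate 3, to 0.10 and -0.04.

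Of the other collagens, Col23a1 is anchored in the cell membrane and measured 143, 137 and 94.0 in Control and 183, 173 and 193 in Ogg1Tg muscle, without overlap (log2 fold change 0.57 ± 0.23, SE; limma adjusted p = 0.40; 0.54 without Ogg1Tg replicate 3). Col28a1, known from peripheral nerve, measured 80.4, 67.1 and 79.6 against 46.7, 66.1 and 44.3, with Ogg1Tg replicate 2 within 1 scaled read of Control replicate 2 (log2 fold change -0.54, and -0.44 without Ogg1Tg replicate 3; limma adjusted p = 0.55). Schwann cell markers summed to 5889 to 6812 in Control and to 5636, 8563 and 4306 in Ogg1Tg muscle, so they overlap. Col26a1 measured 129, 162 and 161 against 123, 152 and 169, with no difference beyond its spread (log2 fold change -0.03, and -0.13 without Ogg1Tg replicate 3). Col17a1, of hemidesmosomes, had 10 to 52 reads per library and overlapping groups.

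**Figure D4:**
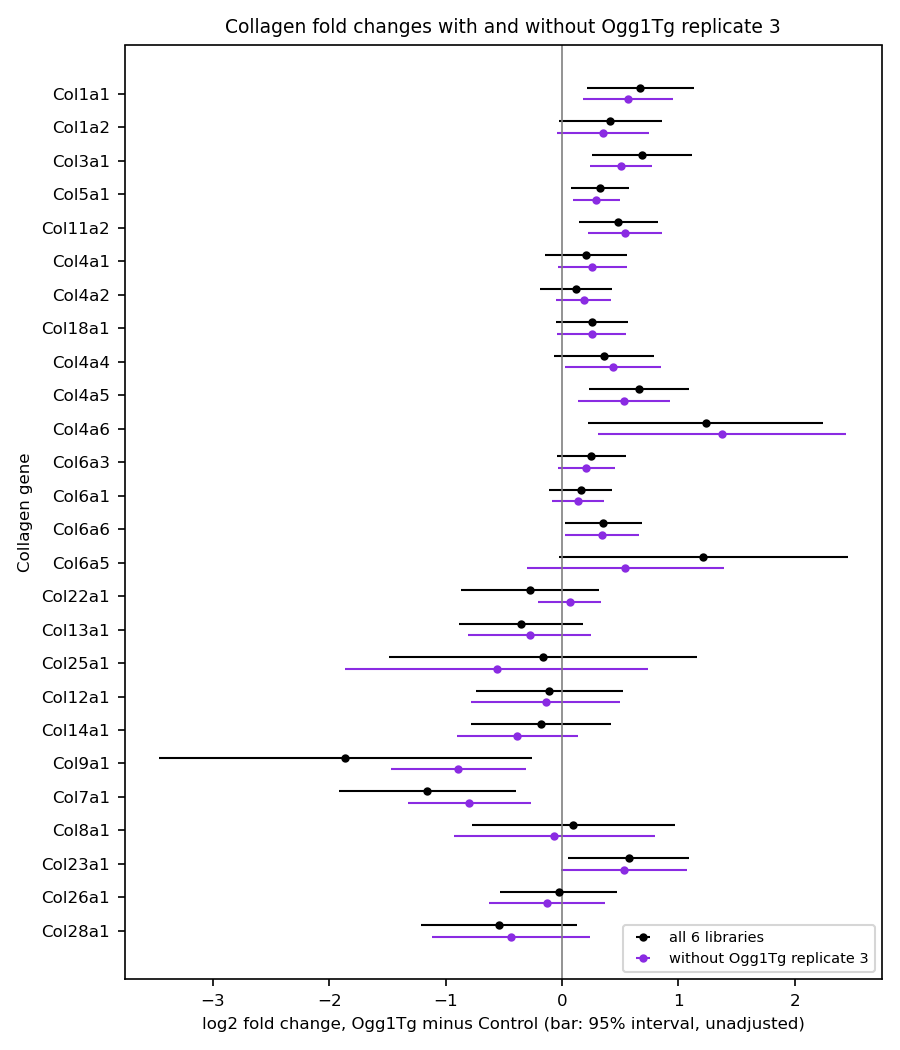
Log2 fold change, Ogg1Tg minus Control, of the named collagens with 95% intervals, unadjusted, from limma on all 6 libraries and without Ogg1Tg replicate 3. The Col22a1 point moves from -0.27 to 0.07 and the Col9a1 point from -1.86 to -0.89 when that library is left out, while Col5a1, Col11a2 and Col18a1 stay close to their first value.

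Genes that make collagen were split around 0. In this and the next lists, shares at an unadjusted p under 0.05 stand beside 4.24% (higher) and 6.78% (lower) of all genes tested. Of 20 genes for hydroxylation, folding and secretion, 10 lay on each side of 0, with a median log2 fold change of 0.01, and limma called 0, with 0 higher and 3 lower at an unadjusted p under 0.05. With edgeR 14 were above 0, with a median of 0.09, and the median was -0.05 without Control replicate 1 and -0.06 without Ogg1Tg replicate 1. P4hb, a subunit of prolyl 4-hydroxylase and the most general folding enzyme of the list, measured 6679 ± 335 in Control and 7463 ± 1164 in Ogg1Tg muscle, and Mia3, which loads procollagen for export, 9976 ± 931 against 7855 ± 1841 (SD, n = 3). P4ha1, the main catalytic subunit of prolyl 4-hydroxylase, measured 1815, 1856 and 1857 in Control and 1436, 1463 and 1129 in Ogg1Tg muscle, lower in every Ogg1Tg library (log2 fold change -0.47 ± 0.14, SE; limma adjusted p = 0.24). P4ha2, another catalytic subunit, measured 843, 1144 and 841 against 676, 749 and 514 (limma adjusted p = 0.33). The catalytic subunits P4ha1 and P4ha2 therefore lay below Control in the same libraries in which Col1a1 and Col3a1 lay above. Their partner subunit P4hb did not share that direction, at 7063, 6440 and 6535 in Control and 7994, 8267 and 6129 in Ogg1Tg muscle. Its log2 fold change was 0.15 (limma adjusted p = 0.74), and 0.28 without Ogg1Tg replicate 3 (limma adjusted p = 0.16). In the whole list, 4 of 20 genes were lower in every Ogg1Tg library, against 11.3% of all genes tested. Higher in every Ogg1Tg library was 1 of 20, against 7.03%. That gene, Ppib, measured 140, 130 and 142 in Control and 184, 156 and 231 in Ogg1Tg muscle (limma adjusted p = 0.49). P4ha1, P4ha2, Ppib and the genes Sparc, Ctgf and Skil below fall outside the naming rule and were picked with their values known. The same holds for the TGF-beta genes above 0 that are named below.

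After secretion, procollagen is trimmed by proteases and cross-linked by lysyl oxidases. Of 13 such genes, 6 were above 0 and 7 below, with a median of -0.07, and limma called 0, with 0 at an unadjusted p under 0.05. The median turned to 0.08 (9 above 0) without Control replicate 3, 0.10 without Ogg1Tg replicate 2, 0.02 with edgeR and 0.03 with quantile normalization. Pcolce, which speeds removal of the C-terminal propeptide, measured 1171 ± 72.5 in Control and 1258 ± 171 in Ogg1Tg muscle, and Loxl2, a lysyl oxidase that acts on type IV collagen, 2295 ± 266 against 2170 ± 121 (SD, n = 3). The direction of Loxl2 turned with edgeR and quantile normalization. Of 16 genes for collagen breakdown and its inhibitors, 6 were above 0, with a median of -0.12 and 0 limma calls (1, lower, at an unadjusted p under 0.05). It was -0.25 (3 above 0) without Ogg1Tg replicate 1 and -0.02 (8 above 0) with edgeR. Timp2, an inhibitor of matrix metalloproteinases, measured 5812, 6746 and 7299 in Control and 4764, 5165 and 4566 in Ogg1Tg muscle, with no overlap (limma adjusted p = 0.25). Timp3 measured 5995 ± 431 against 5141 ± 555 (SD, n = 3; limma adjusted p = 0.58).

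Collagen receptors lay mostly below 0. Of 13 receptors, 2 were above 0 and 11 below, with a median of -0.24, and 0 of 13 were above 0 without Ogg1Tg replicate 3; limma called 0, with 2 lower at an unadjusted p under 0.05. The count above 0 was 5 without Ogg1Tg replicate 2, 4 without Control replicate 3 and 4 with edgeR. Of 8 markers of endothelial and mural cells, 8 were also below 0, with a median of -0.26. Without Ogg1Tg replicate 3, 7 of these were below 0, with a median of -0.17. Their summed values were 37663 to 46160 in Control and 38495, 34943 and 30680 in Ogg1Tg muscle. The part of these cells in the receptor and TGF-beta values was not tested. Itgb1, the beta chain of all collagen-binding integrins, measured 9717, 9863 and 10485 in Control and 8952, 9121 and 7545 in Ogg1Tg muscle (limma adjusted p = 0.56), and Ddr2, the receptor kinase for fibrillar collagen, 2364 ± 307 against 1954 ± 74.2 (SD, n = 3; limma adjusted p = 0.49). Of 21 fibril-binding proteoglycans and matrix proteins, 6 were above 0 and 15 below, with a median of -0.17 and 0 limma calls (3 higher and 2 lower at an unadjusted p under 0.05). That direction rested on single libraries and on scaling: 10 were above 0 with quantile normalization, 14 without Control replicate 3 (median 0.08) and 12 without Ogg1Tg replicate 2 (median 0.03). Sparc, a collagen-binding matrix protein, was one of the few that lay with the collagens, at 5729, 6328 and 6808 in Control and 8196, 7186 and 8389 in Ogg1Tg muscle (log2 fold change 0.33 ± 0.13, SE; limma adjusted p = 0.39). Tnxb, tenascin X, measured 11953 ± 1596 against 10339 ± 1611 (SD, n = 3; limma adjusted p = 0.68).

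Most genes in the list of TGF-beta signalling, the pathway best known for driving fibrillar collagen transcription, lay below 0. Of 18 genes tested, 4 were above 0 and 14 below, with a median log2 fold change of -0.24 (-0.22 without Ogg1Tg replicate 3). Limma called 0, with 0 higher and 6 lower at an unadjusted p under 0.05. Those above 0 were Ltbp2 (1.90), Tgfb1 (0.58), Tgfb2 (0.15) and Tgfbr2 (0.04). Without Ogg1Tg replicate 3 these were at 0.70, 0.03, 0.36 and -0.21. The list holds genes that repress the pathway, such as Skil, beside genes that drive it, so its median does not measure signalling. The count above 0 was 3 to 5 under every alternative. Smad3, the receptor-activated transcription factor of the pathway, measured 6509, 6528 and 5761 in Control and 3214, 4420 and 2099 in Ogg1Tg muscle. The groups do not overlap, and the log2 fold change was -1.01 ± 0.24 (SE; limma adjusted p = 0.16). Skil, which encodes a repressor of Smad proteins that the pathway itself induces, measured 2216, 2279 and 1967 against 1343, 1286 and 1646, a log2 fold change of -0.60 ± 0.14 (SE; limma adjusted p = 0.14). Both calls depend on the fit. Without Ogg1Tg replicate 3, limma gave an adjusted p of 0.024 for Smad3 and 0.0074 for Skil, but 0.20 and 0.097 with the filter on low values taken over all 6 libraries. Without Ogg1Tg replicate 2, limma gave 0.029 for Smad3 and 0.21 for Skil. DESeq2 gave 0.0098 and 0.046 on all 6, and edgeR 0.19 and 0.26.

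A target gene of this pathway lay on the same side. Ctgf, a matrix growth factor, measured 648, 891 and 877 in Control and 598, 499 and 326 in Ogg1Tg muscle (log2 fold change -0.79 ± 0.24, SE; limma adjusted p = 0.26). Every Ogg1Tg value was below every Control value. Ltbp4, which stores latent TGF-beta in the matrix, measured 6962 ± 920 against 5577 ± 1037 (SD, n = 3; limma adjusted p = 0.51). The receptor and TGF-beta lists thus had negative medians where the fibrillar, basement membrane and type VI collagens had positive ones, and no test was made of one list against another.

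**Figure D5:**
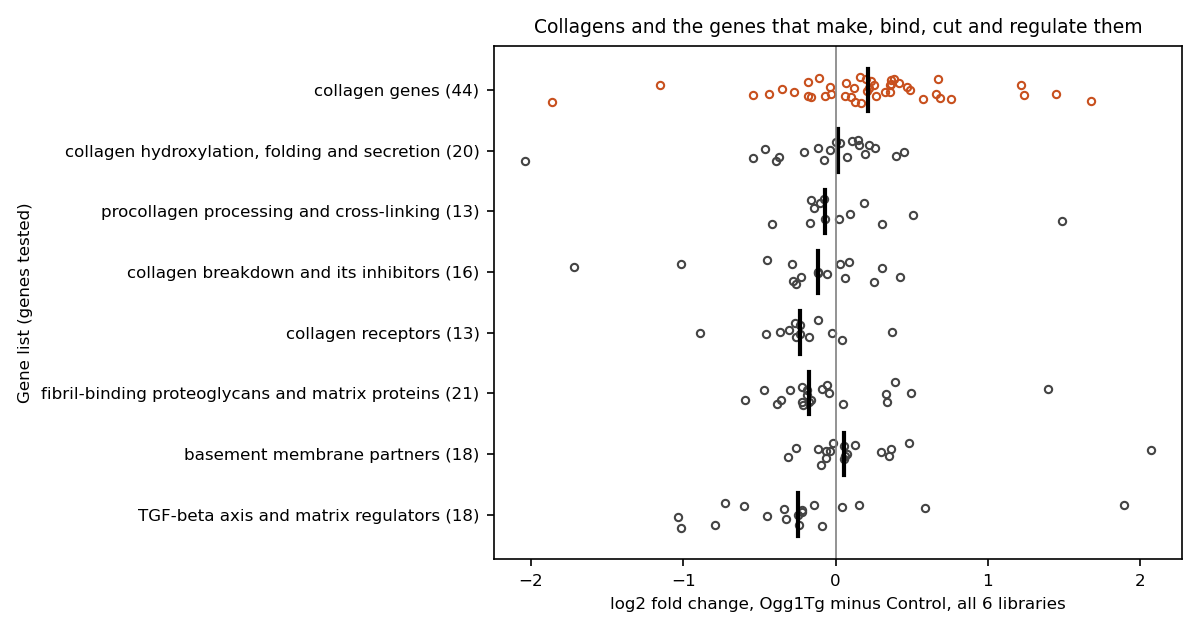
Log2 fold change, Ogg1Tg minus Control, of the 44 collagen genes drawn together, and of every tested gene in each list of genes that make, bind, cut or regulate collagen. The median of the collagens and of each list is marked. The median of the collagens is 0.21, while the medians of the receptor and TGF-beta lists are both -0.24.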

How the data were processed

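Total RNA of 6 gastrocnemius muscles was sequenced as 1 library per mouse. Per the submitters' processing notes, Trimmomatic, SAMtools and HTSeq were used on mm10, with no versions. Not given in the sources used here are aligner, annotation and strand setting. The deposited values are a signal, gene read counts divided by 1 factor per library: each was a whole multiple of 1 step, within 0.01 of a read for 100% of values. For Ogg1Tg replicate 3 that step is 1.006, near 1, so the recovery is less distinctive there. They are not per length, although the deposited names call them FPKM. Entries with no gene name (1824, with 2.38% to 3.53% of reads) were left out.

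Log2(value + 1) of genes with a mean of at least 1 was fitted with limma 3.58.1 (R 4.3.3; eBayes with trend, two-sided, Benjamini-Hochberg over all genes); log2 values of low genes understate a fold. edgeR 4.0.16 and DESeq2 1.42.0 used the recovered reads. Lengths and coordinates came from GENCODE M21 (GRCm38, the assembly of mm10), matched by symbol for 35319 of 35474. Exons of 13 collagens overlap another gene, so reads there may be shared.

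The members and lists were chosen with earlier results of these data known. Some lists share genes. Dcn and Lum are fibroblast markers, Fmod, Kera and Chad are tendon markers, and each is also in the fibril-binding list. The naming rule takes collagens whose groups do not overlap at a mean of at least 10, the 2 highest of each class, junction collagens, and in each other list the called genes and the 2 highest. Values of Col15a1, Col4a3, Col6a2 and Col6a4 were added outside it. P-values reflect the spread between these mice. Alternatives were another pseudocount, filter, scaling, variance trend or tool, replicate number as a block, and leaving out each library; the fit without Ogg1Tg replicate 3 with the filter on all 6, and edgeR without that library, were added after seeing the data.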

Additional observations from a re-analysis of the deposited data

How the results depend on the processing

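Collagen calls stayed at 0 under every alternative except DESeq2 (3). Collagens at an unadjusted p under 0.05, 10 in the first fit, were 5 to 17 over the alternatives, with 5 without Ogg1Tg replicate 3 with the filter on all 6 and 17 with edgeR. All genes called, 127, became 622 with DESeq2, 46 without a variance trend, 402 with edgeR without Ogg1Tg replicate 3, 28 without that library with the filter on all 6, and 35 to 425 with 1 library left out, the highest of these without Ogg1Tg replicate 3 and the lowest without Control replicate 3. Calls in the 7 lists of genes that act on collagen, 0, became 2 with DESeq2, 2 with edgeR without Ogg1Tg replicate 3, and 0 to 2 with 1 library left out. The cause was not tested. No pairing by replicate number was seen (correlations of deviations from the group means -0.053, -0.0051 and 0.031). With 3 libraries per group, such correlations cannot exclude a pairing. With the replicate block 0 collagens, 102 genes in all and 0 genes of the lists were called. Of 720 values of 40 named genes under 18 alternatives, 674 kept direction and side of the threshold, 7 came to pass it and 39 changed direction. With 1 library left out, the log2 fold change ran from -0.51 to 0.066 for Col22a1 (above 0 without Ogg1Tg replicate 3), from -0.56 to 0.34 for Col25a1 (above 0 without Ogg1Tg replicate 2 or either of Control replicates 2 and 3), from -0.42 to 0.16 for Col12a1 and -0.38 to 0.048 for Col14a1 (both above 0 without Control replicate 3 or Ogg1Tg replicate 2), from -0.14 to 0.50 for Col8a1 (above 0 only without Control replicate 3 or Ogg1Tg replicate 2), from -0.13 to 0.098 for Col26a1 (above 0 without Ogg1Tg replicate 1 or either of Control replicates 2 and 3), from -0.012 to 0.15 for Pcolce (below 0 without Ogg1Tg replicate 1), from -0.15 to 0.011 for Loxl2 (above 0 without Control replicate 3), from -0.12 to 0.052 for Lamc1 and from -0.17 to 0.079 for Hspg2 (both above 0 without Ogg1Tg replicate 3). With edgeR the values that turned were Col25a1 at 0.025, Col26a1 at 0.062, Loxl2 at 0.0020, Lamc1 at 0.042 and Hspg2 at 0.019. With DESeq2 they were Col26a1 at 0.035 and Lamc1 at 0.019, and with median-of-ratios rescaling 0.027 and 0.015. Quantile normalization turned Loxl2 (0.025), Tnxb (0.031), Lamc1 (0.18) and Hspg2 (0.26). Without Ogg1Tg replicate 3 and with the filter on all 6, Col22a1 was at 0.066, Col8a1 at -0.065, Lamc1 at 0.052 and Hspg2 at 0.079, and with edgeR without that library Col22a1 was at 0.11, Lamc1 at 0.098 and Hspg2 at 0.12. Depth limits Col6a4 and Col9a2, with as few as 2 and 1 reads in a library.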
